A study of Mus musculus with 2 samples.

Results

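The genes described are the chemosensory receptor genes of the mouse: all protein-coding genes on the autosomes of the GRCm38 RefSeq gene table whose symbol starts with Olfr, Vmn1r, Vmn2r or Taar. There were 1473 of them among 20665 autosomal protein-coding genes, namely 1104 olfactory receptor genes (Olfr), 231 and 123 vomeronasal receptor genes of the Vmn1r and Vmn2r families and 15 trace-amine associated receptor genes (Taar). The other 19192 autosomal protein-coding genes were the comparison, and 7 genes with such symbols on chromosome X were left out. The assay was ATAC-seq of neural retina from adult C57BL/6 mice, where the transposase Tn5 cuts accessible DNA and leaves sequencing adapters at each cut (an insertion). The animals compared were littermates, a knockout (KO) of Gabra3, which encodes a GABA-A receptor subunit, and the wild type (WT). Each genotype had 1 library of 20000 nuclei read as 75 bp single-end reads. The labels do not say how the knockout allele was made or how many retinas or animals went into a library.

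Olfactory receptors are odour-binding G protein-coupled receptors of the olfactory epithelium, and each sensory neuron there expresses a single allele of a single olfactory receptor gene. Vmn1r and Vmn2r receptors do the same work for pheromones and other social odours in the vomeronasal organ, and most Taar receptors bind volatile amines in the olfactory epithelium. The genes stand in large tandem clusters that are known to be packed into repressive chromatin in olfactory neurons outside the chosen allele, and most are silent in other tissues. The retina has no olfactory sensory neurons.

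The KO library gave 7646373 insertions and the WT library 7635799 after reads with a mapping quality under 10 and repeats of a position and strand were left out, of which 7475033 in KO and 7462427 in WT were autosomal. Both libraries had 3.11 autosomal insertions per kb. Open regions at gene ends, defined further on, were found at 8 of 9 rod marker genes, at 5 of 6 bipolar and Muller glia markers, at 2 of 3 vomeronasal neuron markers (the G protein genes Gnao1 and Gnai2) and at 1 of 5 markers of the retinal pigment epithelium (Mitf). A further gene of that list, Otx2, had 21 insertions at its ends in KO and 46 in WT (log2 ratio -1.12, interval -1.95 to -0.36), with an open region in WT alone. The 5 genes of the list together held 161 in KO and 179 in WT (-0.15, -0.47 to 0.16), so Otx2 does not stand for the list. Rod markers held 896 insertions at gene ends in KO and 1006 in WT (log2 ratio -0.17, interval -0.30 to -0.04). The body of Gabra3 (224 kb, chromosome X) held 121 insertions in KO and 126 in WT and its ends 2 in each, which does not check the genotype because the deleted part is not given in the sources used here. With 1 library per genotype, ratios compare those libraries and not the conditions, and no test was possible. Intervals are exact 95% intervals (Clopper-Pearson for ratios and shares, Poisson for densities) that cover counting error only.

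The sequences below are the 250 bases before and the 50 bases after annotated starts from RefSeq (GRCm38.p6), 5′ to 3′ on the strand of the gene, with CG dinucleotides in capitals. They are shown because the receptor gene with an open region at its own start, Vmn2r29, differs from nearly all other receptor genes in the number of these dinucleotides. Its upstream start (chr7:7278240-7278539, minus strand) held 23 of them and its inner start (chr7:7247279-7247578, minus strand) held 0. The start of Vmn1r4 (chr6:56956263-56956562, plus strand), that of Olfr71 (chr4:43706517-43706816, minus strand) and that of Olfr223 (chr11:59590038-59590337, minus strand) held 1, 6 and 2. The start of Taar7a (chr10:23993432-23993731, minus strand) held 1.
Vmn2r29 upstream start: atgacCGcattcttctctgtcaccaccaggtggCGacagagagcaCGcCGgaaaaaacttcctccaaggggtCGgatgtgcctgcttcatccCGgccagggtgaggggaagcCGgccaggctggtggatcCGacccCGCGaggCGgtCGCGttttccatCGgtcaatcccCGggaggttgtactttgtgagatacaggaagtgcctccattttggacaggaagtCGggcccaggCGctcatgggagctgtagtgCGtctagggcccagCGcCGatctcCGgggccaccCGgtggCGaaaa
Vmn2r29 inner start: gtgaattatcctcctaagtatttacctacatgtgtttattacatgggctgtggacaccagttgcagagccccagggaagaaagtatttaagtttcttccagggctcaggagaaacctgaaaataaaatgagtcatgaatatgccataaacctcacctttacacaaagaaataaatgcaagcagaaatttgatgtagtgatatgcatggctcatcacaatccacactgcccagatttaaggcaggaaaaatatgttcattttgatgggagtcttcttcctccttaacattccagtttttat
Vmn1r4: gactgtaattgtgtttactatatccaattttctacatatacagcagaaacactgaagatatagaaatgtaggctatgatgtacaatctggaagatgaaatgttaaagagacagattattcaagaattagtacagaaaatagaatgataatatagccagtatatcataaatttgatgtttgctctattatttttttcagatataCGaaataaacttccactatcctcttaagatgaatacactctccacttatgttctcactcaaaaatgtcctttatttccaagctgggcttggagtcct
Olfr71: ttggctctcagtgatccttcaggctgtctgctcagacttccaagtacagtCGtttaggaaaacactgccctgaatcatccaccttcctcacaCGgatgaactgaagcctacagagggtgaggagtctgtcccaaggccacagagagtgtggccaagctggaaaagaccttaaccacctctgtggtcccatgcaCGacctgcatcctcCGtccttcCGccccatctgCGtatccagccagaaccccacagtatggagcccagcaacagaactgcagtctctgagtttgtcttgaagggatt
Olfr223: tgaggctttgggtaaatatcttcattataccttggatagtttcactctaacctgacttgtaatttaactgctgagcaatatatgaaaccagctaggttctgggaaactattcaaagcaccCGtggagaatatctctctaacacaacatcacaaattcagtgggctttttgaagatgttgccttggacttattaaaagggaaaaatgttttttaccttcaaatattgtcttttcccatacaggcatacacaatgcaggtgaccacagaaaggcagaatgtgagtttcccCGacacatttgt
Taar7a: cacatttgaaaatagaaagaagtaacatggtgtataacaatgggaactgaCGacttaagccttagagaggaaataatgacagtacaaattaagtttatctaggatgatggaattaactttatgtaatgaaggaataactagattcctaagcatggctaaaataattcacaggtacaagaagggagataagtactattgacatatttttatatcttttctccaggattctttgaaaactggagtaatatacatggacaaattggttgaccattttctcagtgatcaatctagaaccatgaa

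The ends of the receptor genes were almost free of insertions. The windows were the 500 bp either side of both ends of a gene, joined where they overlapped. Ends are those of the listed models, many of which hold the coding part alone. A start of transcription can thus lie outside the windows. All receptor genes together had 3736 insertions in KO and 3618 in WT, or 1.29 per kb in KO (1.25 to 1.34) and 1.25 per kb in WT (1.21 to 1.29). The other genes had 27.7 per kb in KO and 28.4 in WT, so the density at receptor gene ends was 4.54% of theirs over both libraries. With reads of every mapping quality, which adds reads that fit several copies, it was 5.23%. A receptor gene held a median of 2 insertions in each library and of 4 in both summed, against 49 in both summed for the other genes. Only 8.27% of the other genes had 4 or fewer. Both libraries together left 108 receptor genes (7.33%) with 0 insertions, against 2.02% of the other genes, and 17 receptor genes reached 20.

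Scaled to autosomal insertions, the interval of the ratio between the libraries spanned 0 for every family but the trace-amine receptors. Over all receptor genes the log2 ratio of knockout to wild type was 0.04 (-0.02 to 0.11), and that of the other genes was -0.03. Of the 1473 receptor genes, 570 (38.7%) had more insertions in KO, 528 (35.8%) had fewer and 375 had equal counts. Of the other genes 8051 (41.9%) had more in KO and 9350 (48.7%) had fewer. Olfr genes held 2896 insertions in KO and 2792 in WT (0.05, -0.03 to 0.13). Vmn1r genes held 561 in KO and 559 in WT (0.00, -0.17 to 0.17). Vmn2r genes held 239 in KO and 201 in WT (0.25, -0.03 to 0.53). Taar genes held 40 in KO and 66 in WT, a log2 ratio of -0.72 with an interval of -1.33 to -0.14. The Taar interval rests on 15 genes. For all receptor genes, Olfr and Vmn2r genes, the ratio stayed above 0 in every setting, but whether its interval did so depended on the setting. The Vmn1r ratio ran from -0.05 to 0.20. Scaled to insertions in open regions, the ratio was 0.11 (0.04 to 0.17) for all receptor genes, 0.11 (0.04 to 0.19) for Olfr and 0.31 (0.03 to 0.59) for Vmn2r genes. Scaled to the ends of the other genes it was 0.08 (0.01 to 0.14) for all receptor genes and 0.08 (0.01 to 0.16) for Olfr genes. With reads of every mapping quality the Vmn2r ratio was 0.34 (0.11 to 0.57).

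**Figure D1:**
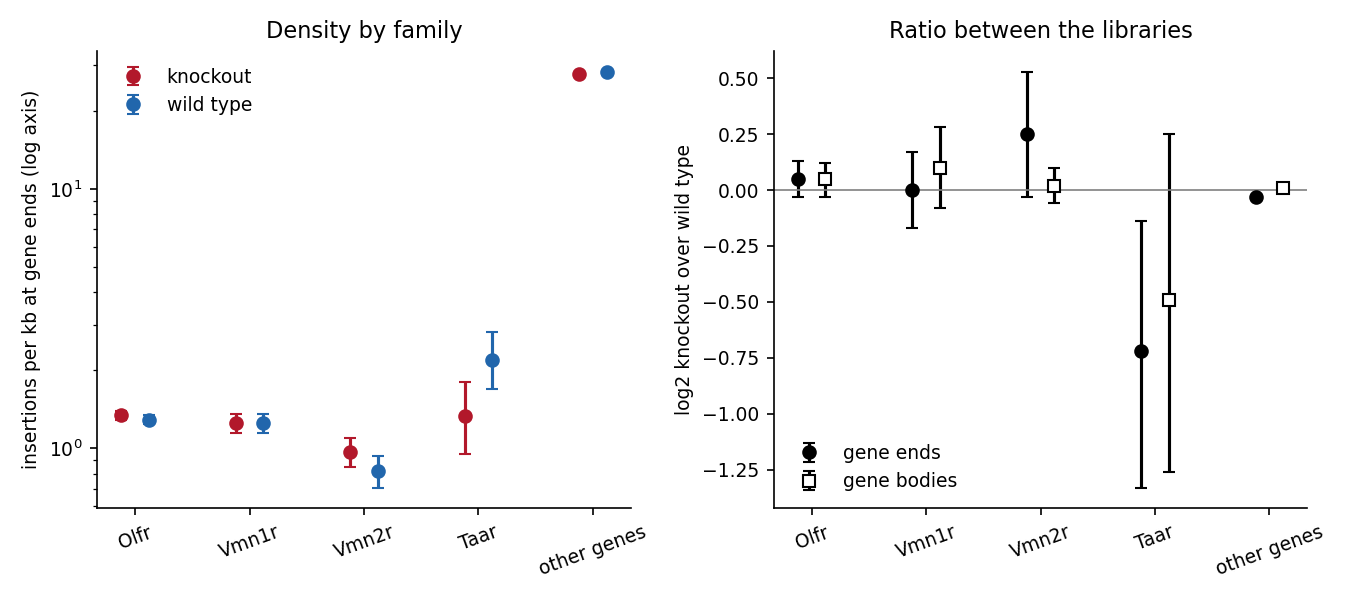
Left, insertions per kb at the ends of Olfr, Vmn1r, Vmn2r and Taar genes and of the other autosomal protein-coding genes (log axis), with the KO library left of the WT library. Right, log2 ratio of knockout to wild type at gene ends (filled circles) and in gene bodies (open squares), with bars on both sides giving exact 95% intervals of counting error. The families lie between 0.816 and 2.20 insertions per kb while the other genes lie at 27.7 in KO and 28.4 in WT, and with this scaling only the Taar interval at gene ends, among the receptor families, lies wholly on one side of 0.

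Around the annotated start there was no peak of the kind seen at other genes. Many receptor models hold the coding part alone, as described below. Their start of transcription can lie elsewhere and was not examined. A start with its strand was listed for 1271 of the 1473 receptor genes and for 15186 other genes. In the 100 bp before the start, receptor genes had 1.04 insertions per kb in KO and 1.05 in WT, while the other genes had 115 per kb in KO and 121 in WT. Upstream of that, from 1000 to 900 bp before the start, receptor genes had 1.03 per kb in KO and 1.06 in WT, so the level did not climb toward the listed start. The highest 100 bp lay inside the gene, 300 to 400 bp after the start, with 2.01 per kb in KO and 1.90 in WT. From 1000 to 1100 bp after the start the level was 0.889 per kb in KO and 0.968 in WT.

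**Figure D2:**
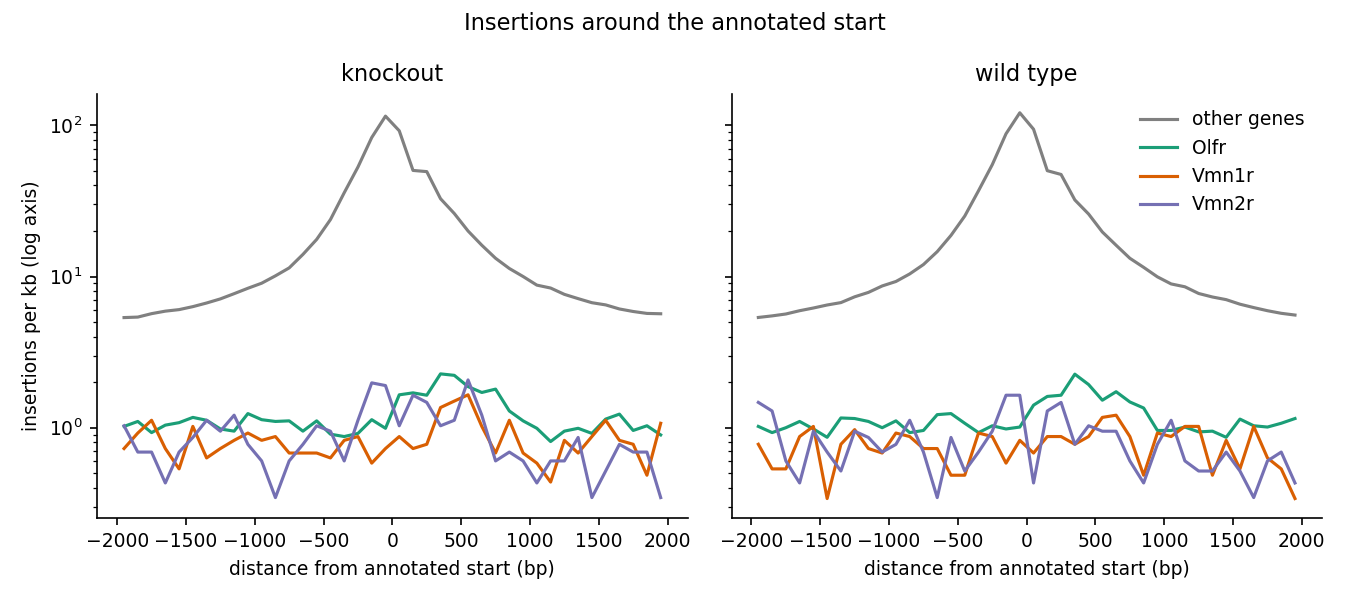
Insertions per kb (log axis) in 100 bp steps by distance from the annotated start, in KO (left) and the WT library (right), for Olfr, Vmn1r and Vmn2r genes and for the other autosomal protein-coding genes. The other genes peak just before the start at 115 per kb in KO and 121 in WT, and the receptor families stay near 1 per kb with a low swell inside the gene. The rise of the Vmn2r line just before the start holds the insertions of Vmn2r29.

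That swell followed the coding stretch. Many receptor genes are listed with their coding part alone: 76.4% of the receptor gene models had a length that is a multiple of 3, against 33.7% of the other genes, so the listed span is close to a coding length. In 1019 such models of up to 1300 bp, the coding length held 1565 insertions in KO and 1464 in WT. It was set against a flank of 1000 bp on either side that leaves out the 500 bp next to the gene. The density in the coding length was 1.66-fold that of the flanks in KO (1.55 to 1.77) and 1.59-fold in WT (1.49 to 1.71). With reads of every mapping quality the values were 1.68-fold in KO and 1.62-fold in WT. Olfr genes showed 1.71-fold in KO and 1.65-fold in WT, and Vmn1r genes 1.38-fold in KO and 1.25-fold in WT. Annotated Olfr pseudogenes of up to 1300 bp, which are not among the 1473 genes, showed 1.32-fold (1.15 to 1.51) in KO and 1.49-fold (1.30 to 1.72) in WT. For Vmn1r pseudogenes it was 1.08-fold (0.867 to 1.35) in KO and 1.34-fold (1.09 to 1.65) in WT. For 13 Taar genes it was 1.33-fold (0.745 to 2.33) in KO and 1.62-fold (0.942 to 2.76) in WT, so these intervals hold 1 in both libraries, as does that of the Vmn1r pseudogenes in KO. Which property of the coding stretch goes with the higher count was not tested.

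Open regions were called on both libraries summed at equal depth, from 200 bp windows whose count passed a Poisson p of 1e-05. The expected count was the genome mean or the mean of the surrounding 10000 bp, whichever was higher, and windows within 150 bp were merged. Such a region lay within 500 bp of a gene end at 10 of the 1473 receptor genes, which is 0.679% (0.326% to 1.24%). The share over all 20665 autosomal protein-coding genes was 52.3%, and that over the other genes was 56.2%. By family these were 8 Olfr genes (0.725%), 1 Vmn1r gene, 1 Vmn2r gene and 0 of the 15 Taar genes, for which the exact upper limit is 21.8%. Called in each library alone, 4 receptor genes had such a region in KO (Vmn1r4, Vmn2r29, Olfr658 and Olfr94) and 2 in WT (Vmn1r4 and Vmn2r29). The ends of Vmn1r4 and Vmn2r29 were open in both libraries with almost the same counts, and the regions at the 8 Olfr genes were weak.

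Vmn1r4, a pheromone receptor gene (chr6:56923914-56957608, plus strand), held the most insertions of all receptor genes at its ends, with 183 in KO and 186 in WT (log2 ratio -0.03, -0.33 to 0.28). Nearly all of them, 182 in KO and 185 in WT, lay at the upstream end of the listed gene. That end lies 94 bp from the end of Nt5c3, which encodes a cytosolic nucleotidase and had 181 insertions at its ends in each library, so the windows of both genes share these insertions. The open region (chr6:56923400-56924499) overlaps Nt5c3 and held 186 insertions in KO and 188 in WT. Its centre lies far upstream, at -32564 bp from the start that the promoter table lists for Vmn1r4, and within 500 bp of that start 3 insertions fell in KO and 3 in WT. The insertions credited to Vmn1r4 thus lay at the end beside Nt5c3 and not at its listed start.

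Vmn2r29, a vomeronasal receptor gene of the second family (chr7:7212996-7278289, minus strand), came next, with 58 insertions at its ends in KO and 55 in WT (0.07, -0.48 to 0.63). All of them lay at the upstream end, which is a listed start of the gene. No other gene of the table ended within 1000 bp of it: the nearest coding genes were the chloride transporter gene Clcn4 at 4.02 kb and the zinc finger gene Zfp772 at 3.00 kb from the gene's other end. The open region (chr7:7277600-7278649) held 69 insertions in KO and 53 in WT (0.38, -0.16 to 0.92). The whole body of the gene held 84 in KO and 54 in WT (0.63, 0.12 to 1.16), and the part of it outside the end windows held 52 in KO and 29 in WT, so the body was higher in KO while the ends nearly matched. The inner listed start of Vmn2r29 had 0 insertions in both libraries. From 800 to 3000 bp inside the gene there was no insertion in either library, and reads of every mapping quality gave 6 in KO and 2 in WT. Among the receptor genes whose start is listed, Vmn2r29 was the only one with an open region that covers it.

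**Figure D3:**
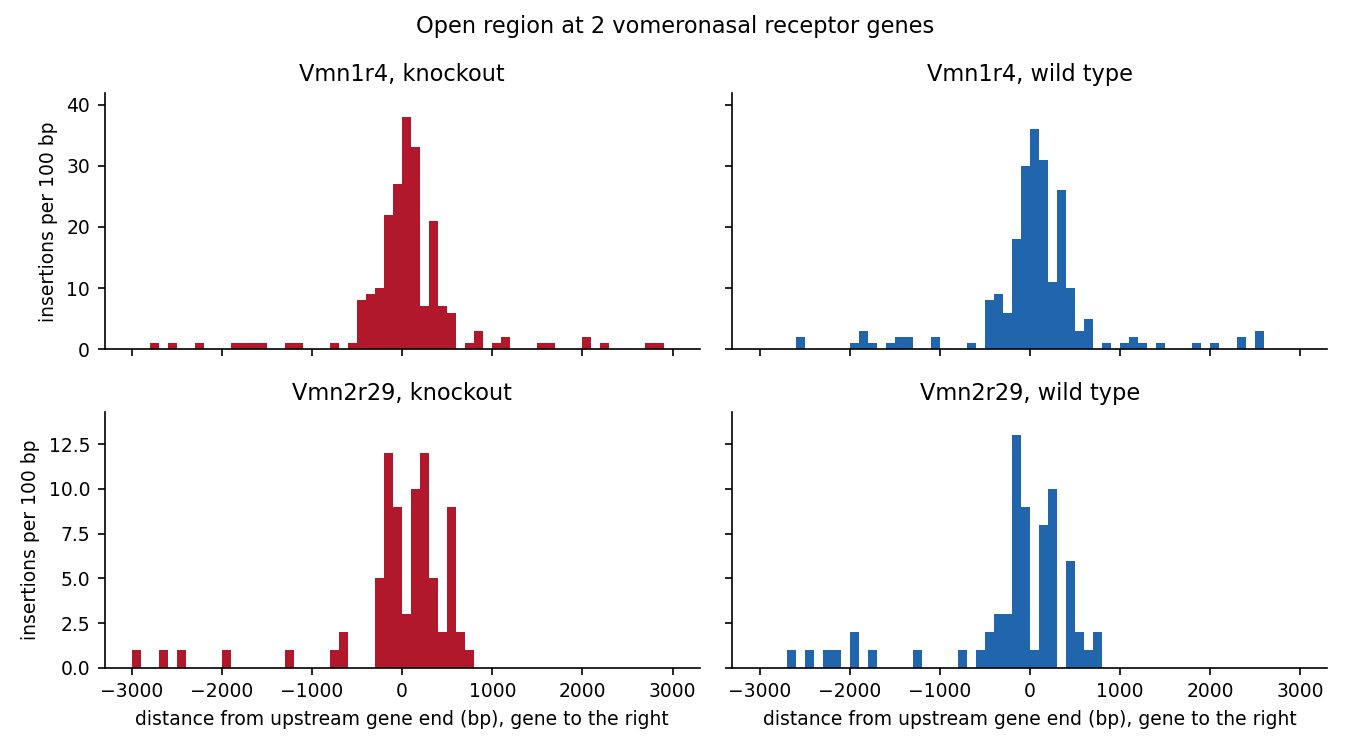
Insertions per 100 bp by distance from the upstream end of Vmn1r4 (top) and Vmn2r29 (bottom), with the gene running to the right, in KO (left) and the WT library (right). Both ends carry a peak about 1000 bp wide of similar height in both libraries, and few insertions lie outside it within 3000 bp.

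Olfr genes followed at a distance. Olfr223 had 13 insertions at its ends in KO and 21 in WT. Olfr71 had 17 in KO and 14 in WT, and Olfr1410 had 14 in KO and 11 in WT. The rest of the 10 receptor genes with most insertions were Olfr370 (11 in KO, 13 in WT), Olfr94 (14 in KO, 10 in WT), Olfr521 (15 in KO, 8 in WT), Olfr155 (11 in each) and Olfr159 (7 in KO, 15 in WT). Olfr225 (12 in KO, 10 in WT) and Olfr658 (13 in KO, 9 in WT) tied with Olfr155 and Olfr159 at 22, and the 10 were filled in order of symbol. All of them are odorant receptor genes, and their summed counts of 22 to 34 were below the median of the other genes, 49. The ratio intervals of the 8 Olfr genes among the 10 span 0. The nearest coding genes outside the families were Nlrp3 at 22.2 kb and Mprip at 72.4 kb from Olfr223, Tmem8b at 13.0 kb and Hrct1 at 20.6 kb from Olfr71, and Cops9 at 28.3 kb from Olfr1410. Olfr370 lay 24.6 kb from Ndufb7, a gene of the respiratory chain, Olfr94 lay 0.705 kb from Ubd and Olfr521 lay 43.3 kb from Neu3, a sialidase gene. Olfr155 lay 20.1 kb from Reck and Olfr159 lay 35.5 kb from Spaar. Olfr71, Olfr155 and Olfr159 stand in the same cluster of 6 receptor genes on chromosome 4. Some of these neighbours had an open region at an end. They were Mprip (199 insertions in KO, 166 in WT), Ndufb7 (121 in KO, 131 in WT) and Tmem8b (95 in KO, 92 in WT). Reck (89 in KO, 78 in WT), Cops9 (95 in KO, 119 in WT) and Neu3 (37 in KO, 48 in WT) had one as well. The rest had none: Nlrp3 (4 in KO, 3 in WT), Hrct1 (16 in KO, 14 in WT), Ubd (5 in KO, 6 in WT) and Spaar (11 in KO, 6 in WT). Over all autosomal protein-coding genes the share with an open region was 52.3%.

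The open regions at the 8 Olfr genes were small. They held 9 to 16 insertions over both libraries and were 200 to 350 bp wide, while the 9982 open regions at the ends of other genes held a median of 150 insertions and had a median width of 750 bp. In 7 of the 8 the whole region lay inside the gene. The strongest was that of Olfr94 (chr17:37197050-37197399), centred 742 bp after its start, with 9 insertions in KO and 7 in WT. Olfr1495 (chr19:13768600-13768949) had 7 insertions in each library, 430 bp after its start. Olfr223 (chr11:59589650-59589849) had 6 in KO and 5 in WT, 338 bp after its start, and Olfr658 had 7 in KO and 4 in WT. The region at Olfr658 overlapped a pseudogene. With a Poisson p of 1e-07 for the call, 2 receptor genes had an open region, Vmn1r4 and Vmn2r29, and 53.2% of the other genes.

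Among well-placed reads, the rest of the vomeronasal genes were lower than the Olfr genes. Without Vmn1r4, the Vmn1r genes had 378 insertions at their ends in KO and 373 in WT, or 0.848 per kb in KO and 0.837 in WT. After Vmn1r4 the most were at Vmn1r220, with 5 in KO and 8 in WT, and at Vmn1r15, with 6 in KO and 5 in WT. Without Vmn2r29, the Vmn2r genes had 181 in KO and 146 in WT, or 0.741 per kb in KO and 0.598 in WT. The next were Vmn2r2, with 7 in KO and 4 in WT, and Vmn2r54, with 5 in KO and 4 in WT. Reads that could not be placed well were frequent here. In gene bodies, 22.5% of Vmn1r reads in KO and 23.6% in WT had a mapping quality under 10. For Vmn2r genes it was 30.4% in KO and 29.3% in WT, for Olfr genes 11.4% in KO and 9.96% in WT, and for the other genes 2.85% in KO and 2.82% in WT. Low counts of near-identical copies are therefore uncertain, and the order of Vmn1r and Olfr genes depended on the setting and on Vmn1r4. With every mapping quality and Vmn1r4 included, Vmn1r ends had 6.45% (6.14% to 6.76%) of the density of other genes. Olfr ends had 5.01%, and Vmn1r bodies had 40.4% against 36.8% for Olfr bodies. An alternative without Vmn1r4 was added after seeing the data, again with every mapping quality. Vmn1r ends then had 5.02%, level with Olfr ends, and bodies had 32.5%, below Olfr bodies. Vmn2r ends, without Vmn2r29, had 3.63% and bodies 24.5%. Of the 108 receptor genes with 0 insertions, 88 had reads at some mapping quality.

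The Taar genes, all 15 in a single cluster on chromosome 10, had the highest median at gene ends of the 4 families, 6 insertions over both libraries. Taar7a had 6 insertions in KO and 10 in WT. Taar9 had 7 in KO and 6 in WT. Taar2 had 2 in KO and 10 in WT (log2 ratio -2.07, -5.55 to -0.09). Taar1, the member known from brain rather than from the nose, had 3 in KO and 2 in WT. Of the 15 genes, 9 (60%) had fewer insertions in KO, 4 (26.7%) had more and 2 had equal counts, against 48.7% fewer and 41.9% more among the other genes. In Taar gene bodies 27 insertions fell in KO and 38 in WT (-0.49, -1.26 to 0.25). Over the whole span of the cluster the densities were 1.54 per kb in KO and 1.77 in WT, with a log2 ratio of -0.20 (-0.43 to 0.03). Intervals of the bodies and of the whole cluster span 0. With a median length of 1047 bp, most Taar bodies lie largely within the end windows and share their insertions.

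Receptor genes with reported expression outside the nose had no open region at an end, and their summed counts ran from 2 to 15, against a median of 4 for all receptor genes. Olfr78, known from the carotid body and the kidney, had 2 insertions at its ends in KO and 4 in WT. Olfr558, known from kidney and blood vessels, had 8 in KO and 7 in WT. Olfr544, known from metabolic tissues, had 5 in KO and 9 in WT. Olfr16, known from sperm and muscle, had 1 in each library. Olfr691 had 7 in KO and 2 in WT, and Olfr90 had 5 in KO and 2 in WT. Olfr1393, a kidney receptor, had 2 in KO and 0 in WT, and so had Olfr99. An open region lay inside the body of Olfr1393, away from its ends, with 5 insertions in KO and 7 in WT. Olfr558 and Olfr544 were among the 42 receptor genes (2.85%) with at least 14 insertions over both libraries. At these counts a difference between the libraries was not detectable.

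Gene bodies of the receptor genes were low as well, with a smaller distance from other genes. The median receptor gene is 951 bp long, so for most of these genes the end windows hold most or all of the body. Bodies and ends therefore share many insertions and are not separate measures. They held 6158 insertions in KO and 5989 in WT, or 1.06 per kb in KO (1.04 to 1.09) and 1.03 per kb in WT (1.01 to 1.06). Other gene bodies had 4.26 per kb in KO and 4.23 in WT, and the receptor genes reached 24.7% of that over both. The log2 ratio was 0.04 (-0.01 to 0.09) for all receptor genes, 0.05 (-0.03 to 0.12) for Olfr, 0.10 (-0.08 to 0.28) for Vmn1r and 0.02 (-0.06 to 0.10) for Vmn2r genes. Vmn2r genes, which are split into exons over a median of 24544 bp, were lowest, with 0.769 per kb in KO and 0.756 in WT. Per kb of body, among genes with at least 20 insertions there, Olfr223 was highest, with 12.5 per kb in KO and 14.6 in WT. Olfr94 had 11.2 per kb in each library, and Olfr70 had 5.34 in KO and 6.20 in WT. The others of the 10 highest were Vmn1r4, Olfr1414, Olfr157, Olfr287, Olfr288, Olfr376 and Olfr286. Olfr70 and Olfr157 stand in the chromosome 4 cluster that also holds Olfr71, Olfr155 and Olfr159.

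Few receptor genes were far apart between the libraries. Of the 17 with at least 20 insertions at their ends, 0 were 2-fold or more higher in KO, against 1.03% of all 13160 genes with such counts. Olfr159 was 2-fold lower, with 7 insertions in KO and 15 in WT (-1.05, -2.64 to 0.28), against 0.752% of all genes. The highest ratio of the 17 was at Olfr521 (0.86, -0.42 to 2.35), followed by Olfr1121 with 12 insertions in KO and 8 in WT (0.55, -0.83 to 2.08). The lowest after Olfr159 were Olfr223 (-0.67, -1.81 to 0.37) and Olfr1411 (-0.28, -1.74 to 1.12), and these intervals all span 0.

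In gene bodies, 122 receptor genes had at least 20 insertions. Of these, 5 were 2-fold or more higher in KO, against 0.328% of all 17395 genes with such counts, and 3 were lower, against 0.23%. The higher genes were Olfr1223, Olfr1258, Vmn1r45, Vmn2r71 and Vmn2r116, and the lower ones were Vmn2r5, Olfr157 and Olfr544. Olfr1223 had 16 insertions in KO and 4 in WT (1.87, 0.37 to 4.04), and Vmn2r116, a receptor of the male tear peptide ESP1, had 20 in KO and 8 in WT (1.27, 0.07 to 2.71). Olfr157 had 6 in KO and 18 in WT (-1.51, -3.21 to -0.19). For the other 5 the interval spans 0. Vmn1r45 had 16 in KO and 6 in WT (1.34, -0.02 to 3.05), and Olfr1258 and Vmn2r71 each had 15 in KO and 7 in WT (1.04, -0.28 to 2.63). Olfr544 had 7 in KO and 17 in WT (-1.22, -2.79 to 0.06), and Vmn2r5 had 8 in KO and 17 in WT (-1.04, -2.51 to 0.20). All 8 held 20 to 49 insertions over both libraries. Of the 1585 genes with such counts, 3.28% were 2-fold higher and 2.40% were 2-fold lower, against 6.10% and 3.66% of the 82 receptor genes among them. With at least 50 insertions, 0 of 40 receptor genes were 2-fold apart in either direction.

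The clusters as a whole were poor in insertions, not the genes alone. Receptor genes less than 1 Mb apart were joined into 69 clusters, of which 29 had at least 10 members and held 1345 receptor genes (91.3%) over 54.5 Mb, or 2.27% of the autosomal span. These 29 had 71201 insertions in KO and 71416 in WT, 1.31 per kb in each, against 3.11 per kb over all autosomes. Outside all coding genes and their ends the clusters had 0.988 per kb in KO and 0.971 in WT. The autosomal mean includes genes and their ends, and no autosomal value outside them was computed. Reads with a mapping quality under 10 made up 2.04% to 81.8% of the reads of a cluster, against 5.5% in KO and 5.3% in WT over the autosomes. In both libraries 28 of the 29 lay below the autosomal mean. The clusters held 308 open regions, or 5.65 per Mb against 15 per Mb over the autosomes. Of these, 76 lay over 1000 bp from any gene end and in no other coding gene, with a median of 14 insertions and at most 94 over both libraries. In 6 clusters there was no open region.

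The largest cluster, with 222 Olfr genes on chromosome 2 (Olfr987 to Olfr1274), had 1.01 insertions per kb in KO and 0.958 in WT (log2 ratio 0.07, 0.02 to 0.13). The lowest was that of 86 Vmn1r genes on chromosome 7 (Vmn1r91 to Vmn1r183), with 0.310 per kb in KO and 0.296 in WT. There, 81.8% of the reads had a mapping quality under 10. With reads of every mapping quality its density was 1.73 per kb in KO and 1.66 in WT, a value within the range of the other clusters. This cluster also held 52 of the 108 receptor genes with 0 insertions at their ends. The highest was that of 24 Olfr genes on chromosome 11 (Olfr30 to Olfr225), with 28 other coding genes in between, at 4.84 per kb in KO and 4.87 in WT. Outside coding genes it had 2.91 per kb in KO and 2.80 in WT. Log2 ratios of the 29 clusters ran from -0.20 to 0.30. The interval lay above 0 in 3 of them and below 0 in 3. The highest was that of 15 Vmn1r genes on chromosome 6 (Vmn1r40 to Vmn1r54), with 0.941 per kb in KO and 0.762 in WT (0.30, 0.11 to 0.49).

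**Figure D4:**
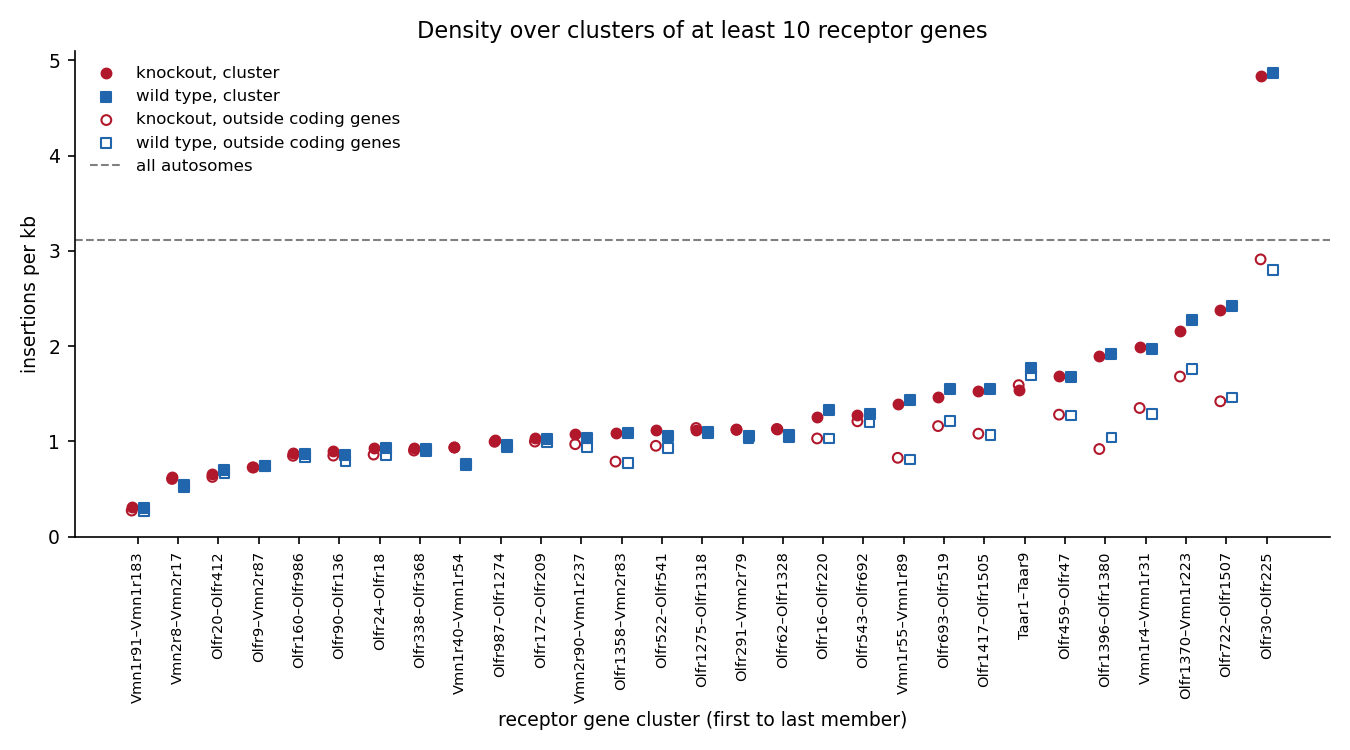
Insertions per kb over each of the 29 clusters with at least 10 receptor genes, ordered by the KO library, for the whole cluster (filled) and for the part outside coding genes and their ends (open), with the KO library (circles) left of the WT library (squares). The dashed line marks all autosomes, genes and their ends included, at 3.11 per kb. The clusters run from 0.310 to 4.84 per kb in KO and from 0.296 to 4.87 in WT, and only the last lies above the line.

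Within the Olfr family, the density at gene ends was higher in small clusters and close to other coding genes. The 33 Olfr genes in clusters of 1 to 4 receptor genes had 2.30 per kb in KO and 2.35 in WT. The 121 in clusters of 5 to 19 had 1.96 per kb in KO and 1.90 in WT, and the 602 in clusters of 20 to 99 had 1.16 in KO and 1.12 in WT. The 348 in clusters of at least 100 had 1.33 per kb in KO and 1.28 in WT. Median counts over both libraries were 8, 5, 4 and 5 in this order. Genes in clusters of 5 to 19 and of at least 100 thus had the same median. By distance to the nearest other coding gene, the 42 Olfr genes within 10 kb had 1.82 per kb in KO and 1.96 in WT. Those at 10 to 50 kb had 1.90 in KO and 1.79 in WT, and those over 500 kb away had 1.06 in KO and 1.14 in WT. The medians at these distances were 7, 6 and 4. Cluster size and distance overlap, and their separate parts were not tested. The share of reads with low mapping quality also differs between clusters, and the classes were not matched for it. All of these groups stayed far below the 27.7 per kb in KO and 28.4 in WT of the other genes. The log2 ratio between the libraries had an interval across 0 in each of these classes.

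**Figure D5:**
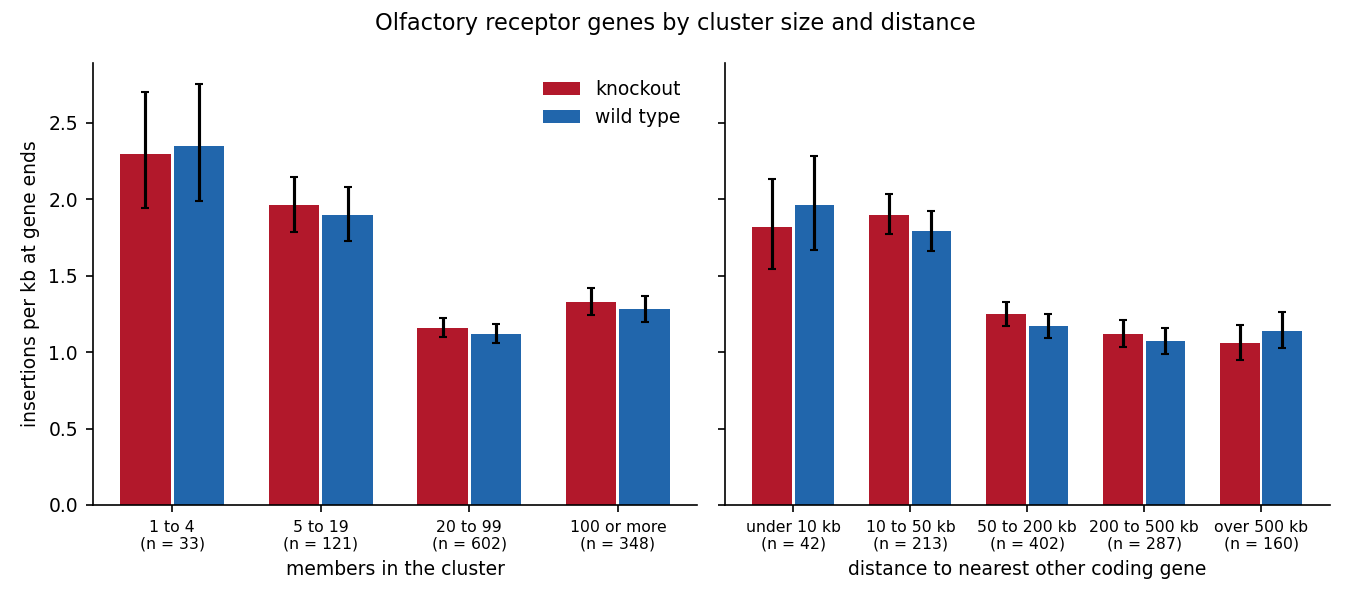
Insertions per kb at the ends of Olfr genes by the number of receptor genes in the cluster (left) and by distance to the nearest coding gene outside the 4 families (right), with the KO library left of the WT library and exact 95% Poisson intervals. Density falls to 1.16 per kb in KO and 1.12 in WT at 20 to 99 receptor genes, and to 1.06 in KO and 1.14 in WT beyond 500 kb.

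Listed starts of receptor genes had few CG dinucleotides. Promoter here means the 300 bases at a listed start. Many receptor models hold the coding part alone, so for them these bases need not hold the start of transcription. The comparison with other genes can therefore set unlike sequence side by side. Over 1276 listed promoter sequences of 1271 receptor genes, the median was 1 in 300 bases, against 15 for the other genes, and the median GC content was 35.7% against 57.7%. At least 10 such dinucleotides stood in 3 receptor promoters (0.235%) and in 61.8% of those of other genes. These 3 were Vmn2r29 with 23, Olfr212 with 13 and Olfr750 with 11. Within 500 bp of the start, both libraries summed, Vmn2r29 had 113 insertions, Olfr750 had 9 and Olfr212 had 2, so a CG-rich start was open in 1 of the 3. Receptor genes were lower than other genes at the same number of CG as well. With 0 in the promoter the median was 2 insertions for receptor genes and 3 for the others, and the mean was 2.39 for receptor genes and 5.27 for the others. With 1 or 2 the median was 2 for receptor genes and 4 for the others, and the mean was 2.40 for receptor genes and 8.35 for the others. With 3 to 5 the medians were 2 for receptor genes and 7 for the others, and with 6 to 9 they were 5 for 18 receptor promoters and 14 for the others. With 10 or more the median of the other genes was 147.

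Searching both strands of the same 300 bases for exact letters, TATAAA, the letters of the TATA box, stood in 39.7% of receptor promoters and 10.9% of the others. TAATTA, a core of LIM homeodomain binding sites such as those of LHX2, stood in 16.6% of receptor promoters and 3.65% of the others. TAATCC, a core of sites of the photoreceptor factor CRX, stood in 9.40% of receptor promoters and 6.22% of the others. CCCNNGGG, a core of the sites of EBF proteins, stood in 4.15% of receptor promoters and 16.8% of the others, and within the receptors in 19.7% of Vmn2r promoters. TATAAA and TAATTA are rich in A and T, as are the receptor promoters, and a match is no sign of binding. Where a receptor model holds the coding part alone, a match to TATAAA need not be a TATA box. Of the sequences shown above, the inner start of Vmn2r29 holds CCCNNGGG, Taar7a holds TATAAA and the others hold none of the 4.

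Many genes that work with these receptors elsewhere are also genes of other tissues. The list, chosen with earlier results known, held 34 genes of olfactory and vomeronasal signalling and of receptor choice, of which 22 had an open region at an end, against 52.3% of all genes. Their ends held 2219 insertions in KO and 2337 in WT (-0.08, -0.16 to 0.01), with a median of 74 over both libraries, against 49 for the other genes. Of 27 with at least 20 insertions, 0 were 2-fold higher and 0 were 2-fold lower. Of the signal transduction genes, the channel subunit gene Cngb1, which rods also use, had 78 insertions in KO and 69 in WT. Ano2, a calcium-activated chloride channel that photoreceptors share, had 84 in KO and 90 in WT. Cnga4, an olfactory channel subunit, had 289 in KO and 261 in WT, but its end lies 118 bp from that of Fam160a2. Adcy3, the olfactory adenylyl cyclase, had 18 in KO and 28 in WT.

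The 9 markers of olfactory neurons were divided. Of these, 4 had an open region at an end (Cnga4, Ano2, Adcy3 and Gng13), and the median of the 9 was 37 insertions over both libraries, against 49 for the other genes. Called in each library alone, Cnga4 and Ano2 were open in both, Gng13 in KO only and Adcy3 in neither. Gng13, a G protein subunit gene that lies 72 bp from Chtf18, had 32 in KO and 24 in WT. The rest had no open region. Rtp1, a chaperone that brings odorant receptors to the membrane, had 2 insertions in KO and 5 in WT, and Rtp2 had 3 in KO and 6 in WT. Stoml3, of the olfactory cilium, had 2 in KO and 7 in WT. Omp, the marker protein of mature olfactory neurons, had 20 in KO and 17 in WT, and Gap43, a growth cone protein gene of immature neurons, had 6 in KO and 2 in WT. Trpc2, the vomeronasal channel, was the 1 of 3 vomeronasal markers without an open region, with 12 in KO and 10 in WT at ends that other genes share.

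Among the genes of receptor choice, Lhx2, which is also a factor of retinal progenitors and Muller glia, had 14 insertions in KO and 28 in WT (-0.98, -2.04 to -0.03). The interval also lay below 0 for Ddit3, a stress response factor gene whose ends lie beside Mars1 and Mbd6, with 149 in KO and 193 in WT (-0.37, -0.69 to -0.06), and spanned 0 for the rest of the list. Emx2, a homeobox gene of the olfactory epithelium, had 4 in KO and 9 in WT, and Ebf2 had 2 in KO and 4 in WT. Genes of repressive chromatin, which most cells use, were open: Lbr, of the inner nuclear membrane, had 179 in KO and 173 in WT, Ehmt1, a histone H3 methyltransferase gene, had 130 in KO and 131 in WT, and Kdm1a, a histone demethylase gene, had 102 in KO and 108 in WT. Cbx5, which encodes heterochromatin protein 1 alpha, had 176 in KO and 196 in WT, at an end it shares with Hnrnpa1.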

How the data were processed

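ATAC-seq libraries of Gabra3 knockout and wild-type mouse neural retina, 1 per genotype, were used as aligned reads. The score in the deposited files is each read's mapping quality from the aligner, with no normalization, and 2 coordinate columns as deposited hold each read's first and last position. Per the submitters' processing notes, Trimmomatic 0.33, BWA and bedtools 2.23.0 were used with GRCm38, also called mm10. Which BWA version was run, what each program did and whether duplicates were removed is not stated in these notes.

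Reads with mapping quality of at least 10 were kept. Their 5-prime end was moved to the Tn5 cut (4 bp for plus-strand reads, -5 bp for minus-strand reads), and each position and strand was counted once. The files held 9038110 reads of the knockout library and 9170838 of the wild-type library. Genes came from the RefSeq gene table of GRCm38, which has no strand, and starts, strands and promoter sequences from a RefSeq promoter table (GRCm38.p6). Log2 ratios put knockout over wild type, after adding 0.5 to each count, and were scaled to all autosomal insertions. Where a gene or region has under 20 insertions its ratio says little. Bases in the windows of more than 1 gene were counted for each gene.

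Genes were named by a rule: the 10 with most insertions at their ends, the 3 with most in each family, the 10 with most per kb of body among those with at least 20, their neighbours, the strongest open regions, the 3 highest and 3 lowest ratios, receptors known outside the nose, and members of a list of olfactory pathway genes. Other genes are named where a count is small, and their names were chosen after their values were seen. The receptor genes, lists and rules were chosen with earlier results of these data known. Counting, intervals and region calls were tested on simulated data. Python 3.11.15, numpy 2.4.6, pandas 2.3.3 and scipy 1.17.1 were used.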

Additional observations from a re-analysis of the deposited data

How the results depend on the processing

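No paired analysis was possible because each genotype had 1 library. Of 76 log2 ratios recomputed under another setting, 74 stayed within the interval of the reported value. Whether an interval spanned 0 was less stable: of 68 such values for ratios whose reported interval spans 0, 13 had an interval wholly above 0. These were ratios of all receptor genes, Olfr and Vmn2r genes, mostly under the other scalings. Scaled to insertions in open regions, the ratio of all receptor genes was 0.11 (0.04 to 0.17) at gene ends and 0.10 (0.05 to 0.15) in bodies. The reported Taar interval at gene ends stayed below 0 in all 8 settings tried for it. At annotated starts alone, chosen after seeing the data, the Vmn1r ratio was 0.20. The Taar ratio at gene ends ran from -1.02 to -0.50 and did not change sign. The density at receptor gene ends, 4.54% of that of other genes, was 5.23% with every mapping quality, 4.22% with at least 30, 3.48% with every read kept, 6.19% with 1000 bp either side, 8.42% as a ratio of medians and 4.87% with each base counted once. It was 4.24% without Vmn1r4 and Vmn2r29 and 2.29% at annotated starts alone, both chosen after seeing the data. For gene bodies, 24.7% became 30.4% with every mapping quality, 22.6% with at least 30, 23.3% with every read kept, 21.1% as a ratio of medians and 24.2% without those 2 genes. With a Poisson p of 1e-07, 0.136% of receptor genes had an open region at an end. Receptor genes 2-fold apart at their ends numbered 1, and 0 with at least 50 insertions. With at least 10 they numbered 23 of 109, of which 12 were higher and 11 lower in KO, against 2.44% higher and 2.24% lower of all 15876 genes with such counts. In bodies they numbered 8, and 0 with at least 50. With at least 10 they numbered 30 of 240, of which 14 were higher and 16 lower, against 0.703% higher and 0.615% lower of all 18217 genes. Of all these genes 15810 held at least 50 insertions, against 40 of the 240 receptor genes. At gene ends 9547 of the 15876 did so, against 2 of the 109 receptor genes. The shares with at least 10 thus compare genes of unlike count, and no share matched for count is given at this minimum. The cause of these shifts was not tested. Depth limits single genes: most receptor genes held too few insertions for a ratio.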
